A study of Mus musculus with 6 samples.

Results

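The genes described here are 10 markers of the brain endothelium and its barrier, given as a list of symbols: Cldn5, Ocln, Tjp1, Pecam1, Cdh5, Flt1, Kdr, Vwf, Slc2a1 and Mfsd2a. They were found by symbol in GENCODE vM21 and are 10 of the 52550 genes listed for every library. All 10 passed the filter on low counts, which left 18795 genes to be tested. Their levels were measured by RNA-seq of whole hippocampus from male C57BL/6 mice (C57B6/J and aged 8 to 10 weeks in the study's methods), with 1 library per mouse from 3 sham and 3 TBI mice (Sham1 to Sham3 and TBI1 to TBI3). The TBI mice received a controlled cortical impact of moderate severity, in which a piston strikes the exposed dura, and the sham mice had the same surgery without the impact. Both groups were therefore anesthetized with ketamine and xylazine and had a craniotomy over the right parietal bone, and both were sampled 24 h after surgery. The methods expose the hippocampus of both sides and do not say which side, or whether both, went into a library.

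Brain capillaries differ from those of other organs in that their endothelial cells are sealed to each other and carry out most exchange through selective transporters. Claudin-5 and occludin span the membrane at the tight junction and ZO-1 ties them to actin, while PECAM-1 and VE-cadherin hold neighbouring cells together. VEGF signals mainly through its receptor VEGFR2, and VEGFR1 binds the same ligand tightly with little signalling of its own. GLUT1 brings glucose into the brain, and MFSD2A carries lysophospholipids and keeps vesicle transport across the cell low.

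Counts summed to between 31630936 and 41771872 per library, and levels are given in CPM, counts scaled to the same total for each library. Sham2 and TBI1 stood apart from the other libraries. In Sham2 the 8 oligodendrocyte markers summed to 2926 CPM, against 8690 to 10695 CPM in the other 5 libraries. Gfap, an intermediate filament gene of astrocytes, was at 4055 CPM in Sham2, against 541 to 1478 CPM. Of the 8 astrocyte markers, Gfap among them, 2 were highest and 3 lowest in Sham2. In TBI1 the 9 striatal neuron markers summed to 4966 CPM, against 162 to 247 CPM in the other 5 libraries. The 10 hippocampal neuron markers summed to 610, 988 and 648 CPM in TBI1 to TBI3, below every sham library (1056 to 1327 CPM), and 9 of the 10 had a log2 fold change below 0, with a median of -0.77. All 10 hippocampal markers were above 0 in every library, and all 10 endothelial and barrier genes were too. The 10 choroid plexus markers, from an epithelium that also forms tight junctions, summed to 137 to 3127 CPM in sham and 507 to 3491 CPM in TBI. In whole tissue, fewer endothelial cells and less RNA per endothelial cell cannot be told apart.

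The starts of the genes differ in their sequence. Of the 10 genes, 7 matched an entry in the RefSeq promoter table on GRCm38, and Pecam1, Cdh5 and Vwf did not. Shown are the 200 bases before the outermost annotated start of the 2 VEGF receptor genes, of which Kdr was the lower in TBI, and of 1 junction and 1 transporter gene for contrast. Each is written 5′ to 3′ on the gene's strand. Capitals mark matches to AGGAAG or GGGCGG (the GC box), and a match on the other strand appears as its complement. AGGAAG is a form of the site bound by ETS factors, which are active in endothelium, and other forms of that site were not searched. The windows are chr5:75978459-75978658 (minus strand) for Kdr, chr5:147726012-147726211 (minus strand) for Flt1, chr16:18776647-18776846 (plus strand) for Cldn5 and chr4:119108511-119108710 (plus strand) for Slc2a1.
Kdr: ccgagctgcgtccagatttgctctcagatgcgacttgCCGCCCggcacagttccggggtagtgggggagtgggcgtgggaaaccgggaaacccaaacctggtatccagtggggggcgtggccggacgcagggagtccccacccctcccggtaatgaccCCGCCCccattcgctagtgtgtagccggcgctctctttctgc
Flt1: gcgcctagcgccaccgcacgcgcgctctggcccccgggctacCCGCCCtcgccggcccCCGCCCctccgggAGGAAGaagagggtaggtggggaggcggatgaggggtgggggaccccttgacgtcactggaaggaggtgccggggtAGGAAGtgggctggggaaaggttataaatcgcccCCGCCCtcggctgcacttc
Cldn5: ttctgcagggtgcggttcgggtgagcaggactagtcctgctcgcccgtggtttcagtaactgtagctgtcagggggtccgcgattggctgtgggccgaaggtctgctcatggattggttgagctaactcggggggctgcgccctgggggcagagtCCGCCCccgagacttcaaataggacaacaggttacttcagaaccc
Slc2a1: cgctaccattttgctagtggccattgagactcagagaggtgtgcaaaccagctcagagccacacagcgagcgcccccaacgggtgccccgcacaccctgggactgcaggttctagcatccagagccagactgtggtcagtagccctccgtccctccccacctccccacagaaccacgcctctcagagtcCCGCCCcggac
Flt1 held AGGAAG 2 times and the GC box 3 times in this window, Kdr 2 GC boxes, and Cldn5 and Slc2a1 1 GC box each. Both strands were searched, and 24.7% of 32851 promoter windows of the same length held AGGAAG and 31% the GC box. The letters ACGTG are a form of the core of the hypoxia response element. They stood 2 times in the Mfsd2a window (also on chromosome 4) and in none of the 4 windows shown. Of all windows, 14% held them, and other forms of the core were not searched. The letters ACAATG, read by SOX factors, were in none of the 4 windows shown, against 8.58% of all windows. A match is a description of the letters and not a binding site.

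The comparison of TBI with sham asks whether the impact changed the level of these genes beyond the effect of the surgery. A gene was called where the edgeR quasi-likelihood test gave it an adjusted p below 0.1 and an unadjusted p below 0.05, with a change of more than 1.5 times in either direction. By this rule 0 of the 10 genes were called, and 0% of all 18795 genes tested. At an unadjusted p under 0.05 alone there were 0 of the 10 genes, against 4.29% of all genes. DESeq2 with its defaults called 0 of the 10 where it called 0.164% of 28118 genes, and 0 of the 10 were at its unadjusted p under 0.05, against 4.11%. Of the 10 log2 fold changes, 6 were above 0 and 4 below, where 48.6% of all genes were below, and their median was 0.021 against 0.0091 for all genes. Without Sham2 this median was 0.093, without TBI1 0.014 and without both 0.13. Kdr was the single gene of the 10 whose sham and TBI libraries did not overlap, with TBI lower, which held in this direction for 5.45% and in either for 10.2% of all genes tested. The lowest edgeR adjusted p among the 10 genes was 0.982. Without Sham2, without TBI1 and without both, 0 of the 10 genes were called, against 0%, 0.00518% and 0.0159% of the genes tested.

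**Figure D1:**
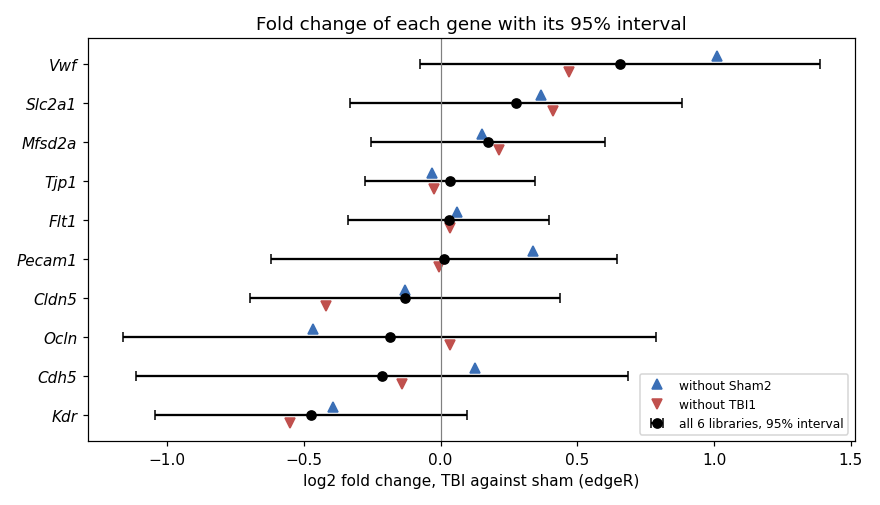
Log2 fold change of TBI against sham for the 10 genes with all 6 libraries (black points, with bars for the 95% interval from edgeR), without Sham2 (blue triangles) and without TBI1 (red triangles). All 10 intervals include 0, with Vwf farthest above it at 0.66 and Kdr farthest below it at -0.48.

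None of the 3 tight junction genes passed the test, and the sham and TBI libraries overlapped for each. Cldn5 (chr16:18776847-18778262), which encodes the claudin that seals brain capillaries, was at 33.9, 33.0 and 31.9 CPM in the sham libraries and at 41.1, 27.4 and 21.8 CPM in the TBI libraries, each in the order of their numbers. The sham libraries lay close together, while TBI1 was above and TBI2 and TBI3 below all of them, so that the groups overlapped. The means were 32.9 ± 1.02 and 30.1 ± 9.89 CPM (SD, n = 3 each), a fold change of 0.914 (95% interval 0.617 to 1.35, edgeR adjusted p = 0.984). Without TBI1 the log2 fold change of Cldn5 was -0.42, with an edgeR adjusted p of 0.906 and an unadjusted p under 0.05. Of 19319 genes tested without TBI1, 4.33% were at such a p, and 2.09% were so with lower levels in TBI.

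Ocln (chr13:100496507-100552718), the gene of occludin, was at 9.98, 6.36 and 17.1 CPM in sham and 6.59, 10.6 and 12.2 CPM in TBI. Both the lowest and the highest value came from sham, and the fold change was 0.879 with a wide 95% interval, from 0.447 to 1.73. Tjp1 (chr7:65296165-65527781), the gene of the scaffold protein ZO-1, was at 104, 88.5 and 99.6 CPM in sham and 108, 104 and 87.4 CPM in TBI. Its groups overlapped, with a fold change of 1.02 (95% interval 0.826 to 1.27). Both proteins are also made by choroid plexus, whose marker sums ranged widely in both groups, and the part of that tissue in these values was not tested.

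Among 19 further junction genes, 12 had a log2 fold change above 0 and 7 below, with a median of 0.14 against 0.0091 for all genes tested (0.050 without Sham1). None was at an unadjusted p under 0.05 in edgeR. The most abundant, Ctnnb1, encodes beta-catenin, which links cadherins to the cytoskeleton, and was at 321 to 457 CPM in sham and 353 to 540 CPM in TBI. Ctnna1, the gene of alpha-catenin, was at 75.0 to 99.3 CPM in sham and 89.7 to 114 CPM in TBI. Afdn, the gene of the nectin-binding protein afadin, was at 58.2 to 87.4 CPM in sham and 53.8 to 60.0 CPM in TBI, with its highest value in Sham2.

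**Figure D2:**
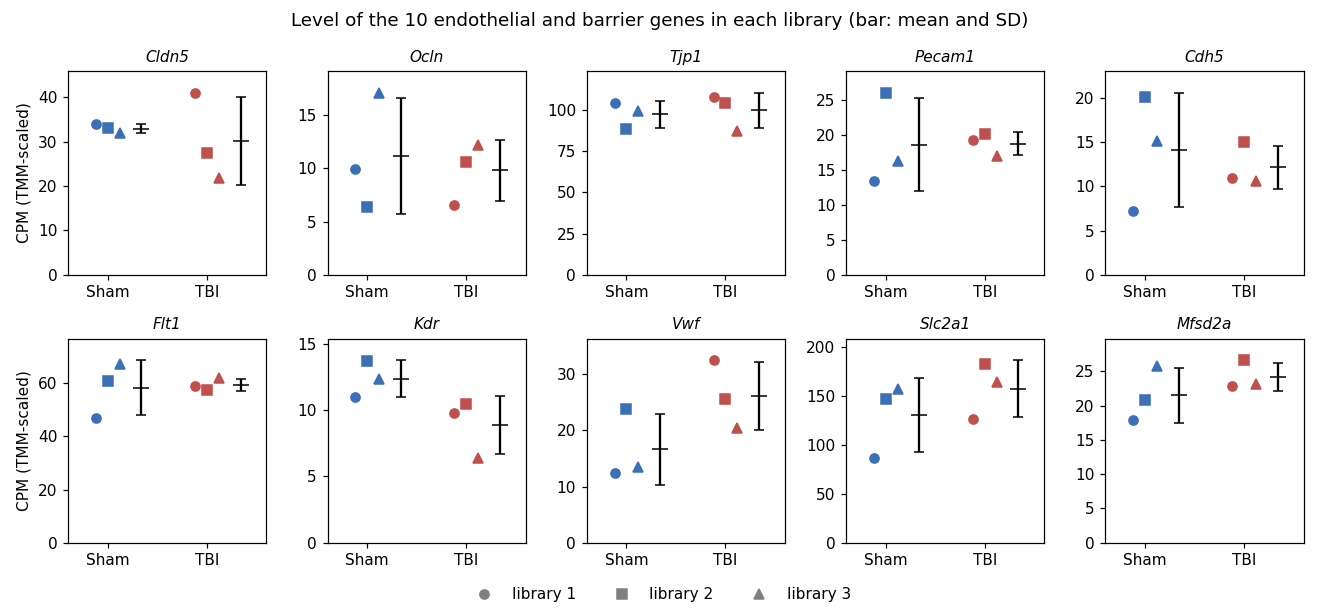
Level in CPM (linear axes from 0) of each of the 10 genes in the 3 sham (blue) and 3 TBI (red) libraries, with symbols for the library number and bars for mean and SD. Kdr is the panel in which the groups do not overlap, with sham at 10.96 to 13.7 CPM and TBI at 6.38 to 10.5 CPM.

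Of the endothelial identity genes, Vwf was higher on average in TBI and Pecam1 and Cdh5 were near their sham means. Vwf (chr6:125546774-125686679), the gene of von Willebrand factor, which is stored in endothelial granules and captures platelets, was at 12.5, 23.9 and 13.5 CPM in sham and 32.5, 25.6 and 20.4 CPM in TBI. TBI1 and TBI2 were above every sham library, and TBI3 was below Sham2, so the groups overlapped through Sham2. The means were 16.6 ± 6.29 and 26.2 ± 6.07 CPM (SD, n = 3 each), and the log2 fold change was 0.66 ± 0.31 (SE), or 1.57-fold (95% interval 0.949 to 2.61). The adjusted p was 0.982 with the edgeR test and 0.924 with DESeq2. Without Sham2, the log2 fold change was 1.01, with an edgeR adjusted p of 0.997 and an unadjusted p under 0.05, as in 3.39% of 19298 genes (1.91% with higher levels in TBI). Without both Sham2 and TBI1, it was 0.82, with an edgeR adjusted p of 0.853 and an unadjusted p under 0.05, as in 5.02% of 18863 genes (2.58% with higher levels in TBI).

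Pecam1 (chr11:106654217-106750628), a cell adhesion gene also made by platelets and leukocytes, was at 13.4, 26.1 and 16.4 CPM in sham and 19.3, 20.1 and 17.0 CPM in TBI. The sham libraries enclosed all 3 TBI libraries, and the fold change was 1.009 (95% interval 0.651 to 1.56). Cdh5 (chr8:104101625-104144511), the gene of VE-cadherin, was at 7.21, 20.1 and 15.1 CPM in sham and 10.9, 15.0 and 10.6 CPM in TBI. Its sham libraries again enclosed the TBI libraries, with a fold change of 0.862 (95% interval 0.462 to 1.61). Both genes had their lowest value in Sham1 and their highest in Sham2. The 11 markers of blood neutrophils, monocytes and platelets summed to 28.0 CPM in Sham2, the highest of all libraries, against 6.20 to 17.3 CPM elsewhere, and their part in these values was not tested.

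Of 28 further endothelial genes, 16 had a log2 fold change above 0 and 12 below, with a median of 0.086, which was 0.0079 without TBI2 and -0.024 without Sham1. Ly6c1, a surface protein gene of brain endothelium, was the single gene of this list at an unadjusted p under 0.05 in edgeR, at 19.7, 22.5 and 35.6 CPM in sham and 33.5, 48.7 and 61.2 CPM in TBI. Its groups overlapped, since TBI1 was below Sham3, and its log2 fold change was 0.88 ± 0.30 (SE), with an adjusted p of 0.982 in edgeR. Of all genes tested, 2.16% were at an unadjusted p under 0.05 and higher in TBI, and Ly6c1 was also at such a p without TBI1 (log2 fold change 1.08) and without both Sham2 and TBI1 (0.99), but not without Sham2 (0.79). Ly6a was above all sham libraries in all 3 TBI libraries, at 31.6 to 33.5 CPM against 10.4 to 26.5 CPM, as were 4.77% of all genes tested. Icam2, an adhesion molecule gene, was below them, at 1.52 to 1.602 CPM against 1.70 to 2.74 CPM, as were 5.45% of all genes tested. The abundant endothelial genes Itm2a (21.0 to 66.7 CPM in sham, 45.3 to 72.5 CPM in TBI) and Cd34 (23.2 to 45.1 CPM in sham, 26.9 to 41.8 CPM in TBI) had overlapping groups, and both had their lowest value in Sham2.

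Of the 2 VEGF receptor genes, Kdr was lower in TBI and Flt1 was level. Kdr (chr5:75932827-75978458), the gene of VEGFR2, was at 10.96, 13.7 and 12.4 CPM in sham and 9.80, 10.5 and 6.38 CPM in TBI. All 3 TBI libraries were below all 3 sham libraries, most so TBI3. The means were 12.4 ± 1.38 and 8.89 ± 2.20 CPM (SD, n = 3 each), and the log2 fold change was -0.48 ± 0.24 (SE), or 0.719-fold (95% interval 0.484 to 1.07). The edgeR adjusted p was 0.982, so the difference did not pass the test. Flt1 (chr5:147561604-147726011), the gene of VEGFR1, was at 46.9, 60.8 and 67.1 CPM in sham and 58.9, 57.6 and 61.9 CPM in TBI. The TBI libraries lay within the range of sham, with a fold change of 1.02 (95% interval 0.791 to 1.32). Counts per gene do not separate its membrane form from the soluble form made from the same gene.

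A ratio of genes within a library cancels any factor that scales both alike. Per kilobase of exon, the ratio of Flt1 to Kdr was 2.86, 2.96 and 3.63 in sham and 4.02, 3.67 and 6.49 in TBI, which gives means of 3.15 ± 0.42 and 4.73 ± 1.54 (SD, n = 3 each). The groups did not overlap, but the lowest TBI library was close to the highest sham library. The ratio of Vwf to Kdr was 0.639, 0.976 and 0.614 in sham and 1.86, 1.37 and 1.80 in TBI, with means of 0.743 ± 0.202 and 1.68 ± 0.27 (SD, n = 3 each). Here too the groups did not overlap, and the gap between them was wider. Both of these ratios divide by Kdr, whose own groups did not overlap. The share of all gene pairs with ratios that do not overlap was not computed. Of 4 ratios computed, the other 2 had overlapping groups, with Slc2a1 to Cldn5 at 1.03 to 1.99 in sham and 1.24 to 3.04 in TBI and means of Cdh5 to Cldn5 of 0.145 and 0.146. The ratios were chosen after the values of the genes had been seen, and no test was made of them.

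**Figure D3:**
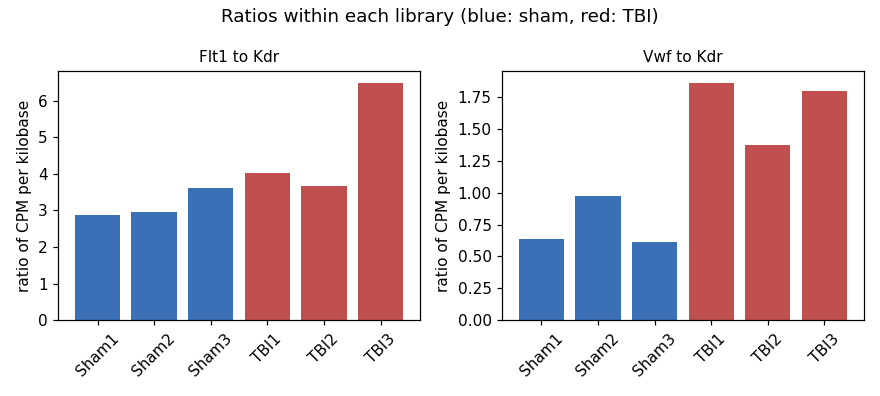
Ratio of CPM per kilobase of exon of Flt1 to Kdr (left) and of Vwf to Kdr (right) in each sham (blue) and TBI (red) library, as bars from 0. Every TBI library is above every sham library in both panels, from 3.67 against at most 3.63 on the left and from 1.37 against at most 0.976 on the right.

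In the list of 20 genes of VEGF, angiopoietin, Notch and hypoxia signalling, 7 had a log2 fold change above 0 and 13 below, with a median of -0.20. Nrp1 and Nrp2 encode neuropilins, co-receptors of VEGF and semaphorins that neurons also make, and were the 2 genes of the list at an unadjusted p under 0.05 in edgeR, both lower in TBI, as were 2.13% of all genes tested. Nrp1 was at 59.2, 62.9 and 54.2 CPM in sham and 20.3, 51.3 and 27.0 CPM in TBI (log2 fold change -0.84 ± 0.33, SE, edgeR adjusted p = 0.982). Nrp2 was at 56.1, 95.4 and 64.5 CPM in sham and 25.8, 50.1 and 35.1 CPM in TBI (log2 fold change -0.96 ± 0.30, SE, edgeR adjusted p = 0.982). In neither gene did the groups overlap, which held with TBI lower for 5.45% of all genes tested, and both were lowest in TBI1 and next lowest in TBI3. The hippocampal neuron markers summed lower in all 3 TBI libraries than in any sham library, with TBI1 and TBI3 lowest there too. Without Sham2, without TBI1 and without both, the log2 fold change of Nrp1 was -0.79, -0.59 and -0.54 and no longer at an unadjusted edgeR p under 0.05. That of Nrp2 was -0.71, -0.76 and -0.50, and no longer at such a p without both. The part of the neuronal makeup of the libraries in these values was not tested. The ligand gene Vegfb (41.5 to 72.9 CPM in sham, 64.3 to 80.9 CPM in TBI) and the oxygen-sensing factor genes Hif1a (79.5 to 87.2 and 78.5 to 92.0 CPM) and Epas1 (105 to 212 and 195 to 212 CPM) had overlapping groups. Without Sham2, the median of the list was 0.060, with 13 genes above 0 and 7 below.

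The 2 transporter genes of the list were somewhat higher on average in TBI, within the spread of the libraries. Slc2a1 (chr4:119108711-119137983), the gene of the glucose transporter GLUT1, was at 86.8, 147 and 157 CPM in sham and 126, 182 and 164 CPM in TBI. Sham1 was lowest, and the groups overlapped because TBI1 was below Sham2 and Sham3. The fold change was 1.21 (95% interval 0.794 to 1.84, edgeR adjusted p = 0.982). Of its exon bases, 2.99% are shared with the antisense gene Gm12868, which had 0 to 13 counts per library, and the sources do not give the strand setting, so those reads cannot be assigned. GLUT1 is also made by astrocytes and choroid plexus. Mfsd2a (chr4:122946850-122961188), the gene of the lysophospholipid transporter, was at 17.8, 20.8 and 25.8 CPM in sham and 22.9, 26.6 and 23.2 CPM in TBI. Its groups overlapped, with a fold change of 1.13 (95% interval 0.838 to 1.52). Without Sham1, the log2 fold change of Slc2a1 was 0.056, against 0.27 with all libraries, and that of Mfsd2a was 0.061, against 0.17.

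Of 21 further transport genes, 10 had a log2 fold change above 0 and 11 below, with a median of -0.080 (0.056 without Sham3), and none was at an unadjusted p under 0.05 in edgeR. The amino acid transporter genes Slc38a5 (2.94, 0.698 and 3.02 CPM in sham, 7.79, 4.203 and 4.47 CPM in TBI) and Slc38a3 (57.8, 29.8 and 54.9 CPM in sham, 89.8, 62.1 and 58.7 CPM in TBI) were higher in every TBI library than in any sham library. This held for 4.77% of all genes tested, and the edgeR adjusted p was 0.982 for each. Sham2 was lowest for both. Of the 21 genes, 10 were lowest and 6 highest in Sham2. Among the low ones in that library, Slco1a4, an organic anion transporter gene of the barrier, was at 5.01 CPM against 37.0 to 54.5 CPM elsewhere, and the drug efflux pump gene Abcb1a at 11.9 CPM against 24.3 to 37.4 CPM. Among the high ones, Lrp8, which encodes a lipoprotein receptor, was at 111 CPM against 33.7 to 56.6 CPM elsewhere, and the lactate transporter gene Slc16a1 at 89.7 CPM against 43.4 to 53.5 CPM. These 4 genes were chosen after their values had been seen. Bsg, whose product basigin accompanies lactate transporters, was at 346 to 363 CPM in sham and 314 to 361 CPM in TBI. The transferrin receptor gene Tfrc was at 114 to 162 and 116 to 135 CPM, and the amino acid transporter gene Slc3a2 at 79.4 to 139 and 83.7 to 95.02 CPM.

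Most markers of endothelial activation were highest in 1 sham library. Whole tissue does not show which cells made these transcripts, and the part of cells other than endothelium was not tested. Of the 16 genes on this list, 13 were tested, and 11 of the 13 had their highest value in Sham2. Plat, which encodes tissue plasminogen activator, was at 133 CPM in Sham2 and 30.8 to 46.3 CPM elsewhere. The adhesion molecule gene Vcam1 was at 35.1 to 49.7 CPM in sham and 29.4 to 51.8 CPM in TBI. With all libraries, 4 of the 13 genes had a log2 fold change above 0 and 9 below, with a median of -0.68 (-0.27 with the replicate number as a block), while the mean log2 CPM of the list differed between the groups by only 0.018. Without Sham2 the counts were 11 and 2, with a median of 1.07. Without Sham2, Lcn2 and Plaur, the genes of lipocalin-2 and the urokinase receptor, were higher in TBI at an unadjusted edgeR p under 0.05, as were 1.91% of all genes, with adjusted p-values of 0.997. Without both Sham2 and TBI1, the median was 0.56, and 1 gene, Lcn2, was at such a p. The direction of the median of the activation genes therefore rested on Sham2, and so did the overlap of the Vwf groups.

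**Figure D4:**
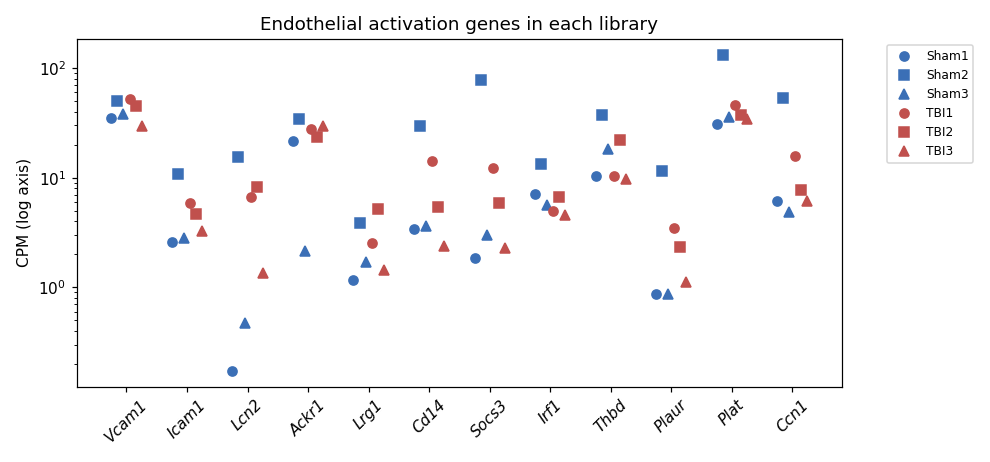
Level in CPM (log axis) of endothelial activation genes in each sham (blue) and TBI (red) library, with symbols for the library number. Sham2 (blue squares) is the highest library for all genes shown but Vcam1 and Lrg1, and for Plat it is at 133 CPM with the others at 30.8 to 46.3 CPM.

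Lists of neighbouring pathways and cells had medians of 0.073 to 0.16. Of 7 genes of caveolae and transcytosis, the vesicle route that MFSD2A restrains, 5 had a log2 fold change above 0 and 2 below, with a median of 0.16. Cav2 was at 39.9 to 99.1 CPM in sham and 43.4 to 62.9 CPM in TBI. Plvap, the gene of a protein of endothelial diaphragms, was at 5.90 to 7.89 and 7.95 to 8.50 CPM. Its groups did not overlap, with TBI higher, as in 4.77% of all genes tested. Of 18 genes of Wnt signalling to the barrier, 12 were above 0 and 6 below, with a median of 0.073, and the ligand gene Wnt7b was at 42.2 to 144 CPM in sham and 37.6 to 56.8 CPM in TBI. Of 17 pericyte and smooth muscle genes, 11 were above 0 and 6 below, with a median of 0.15. Rgs5, a pericyte gene, was at 74.8 to 136 CPM in sham and 105 to 121 CPM in TBI. None of the genes on these 3 lists was at an unadjusted p under 0.05 in edgeR. Groups also did not overlap for 2 pericyte and smooth muscle genes, higher in TBI, and for 1 Wnt gene, lower in TBI. In the lower direction this held for 5.45% of all genes tested. Over the settings that leave out 1 library, the medians ranged from -0.0058 (without TBI3) to 0.25 (without Sham2) for caveolae, from -0.023 (without Sham2) to 0.23 (without Sham3) for Wnt signalling and from -0.023 (without Sham2) to 0.26 (without Sham3) for pericytes and smooth muscle.

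**Figure D5:**
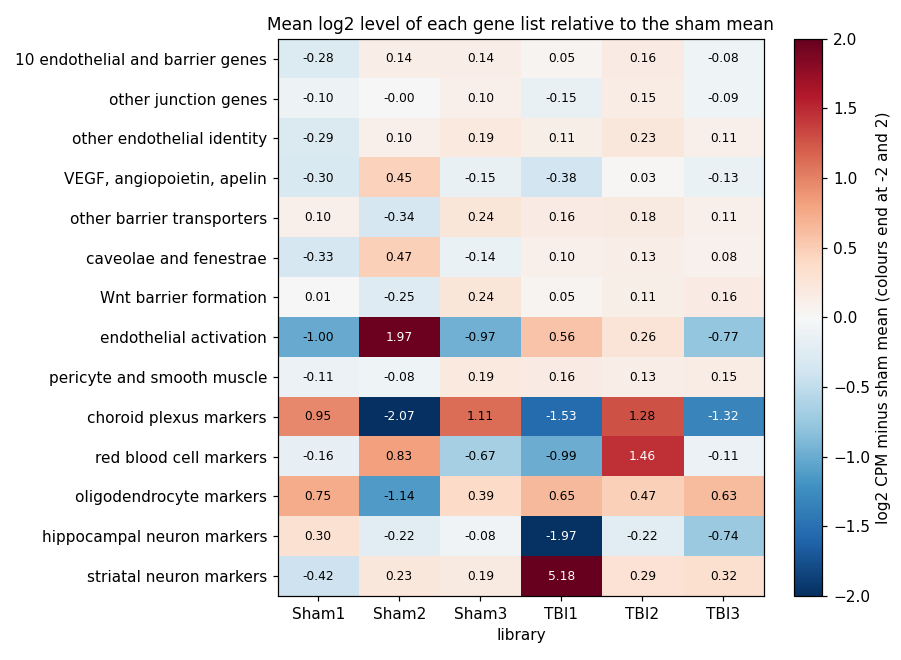
Log2 CPM relative to the average of sham, averaged over the genes of each list, by library, as colours and printed values. The activation list is highest in Sham2, at 1.97, and the 10 endothelial and barrier genes lie between -0.28 and 0.16.

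Per kilobase of exon, the order of levels over the 6 libraries began with Slc2a1 (41.1 ± 9.60 CPM per kilobase, SD, n = 6), Cldn5 (22.3 ± 4.58), Tjp1 (12.6 ± 1.11) and Mfsd2a (10.2 ± 1.43). It went on with Flt1 (4.36 ± 0.50), Cdh5 (3.13 ± 1.07), Pecam1 (3.002 ± 0.70), Ocln (2.48 ± 0.94), Vwf (1.33 ± 0.47) and Kdr (1.18 ± 0.28). The ranges of Cldn5 and Tjp1 did not overlap, nor did those of Mfsd2a and Flt1. Slc2a1 was above Cldn5 and Tjp1 above Mfsd2a in 6 of 6 libraries, although their ranges overlapped. Cdh5 and Pecam1, Pecam1 and Ocln, and Vwf and Kdr each changed places between libraries, with the first of each pair higher in 3 of 6. For Vwf and Kdr, these were the 3 TBI libraries. Exon length was the union over all transcripts of a gene, which sets these values low where long transcripts are rare.

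The 10 genes differed in which libraries were high or low. Sham1 had the lowest value for 6 of the 10 genes and TBI3 for 3, while the highest values were spread over Sham2 and TBI1 (3 genes each) and Sham3 and TBI2 (2 each). Averaged over the 10 genes, log2 CPM relative to sham was -0.28 in Sham1, 0.14 in both Sham2 and Sham3, 0.053 in TBI1, 0.16 in TBI2 and -0.083 in TBI3. Single genes departed from this mean profile, since Cldn5 was highest in TBI1, and Ocln and Tjp1 were low in Sham2, where the mean was high. The difference of the group means was 0.042, smaller than the spread among the sham libraries. Among 18785 other genes, those closest to the mean scaled profile of the 10 over 6 libraries included Gm10575, Dtd1, Eng and Rpa1, with root-mean-square differences of 0.0399, 0.121, 0.137 and 0.194. Eng encodes endoglin, a TGF-beta co-receptor of endothelium, and was at 12.1, 16.2 and 17.1 CPM in sham and 16.2, 16.3 and 14.0 CPM in TBI. Gm10575 was at most at 2.21 CPM.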

How the data were processed

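RNA of mouse hippocampus was sequenced in 3 sham and 3 TBI mice, grouped by the sample labels. For the authors' files, reads were checked (FastQC), mapped to GRCm38 (HISAT2) and quantified (StringTie). The values deposited are estimated counts for each gene, whole numbers and not normalized, and were not changed here. The strand setting, the versions of these tools and how coverage was turned into counts are not given in the sources used here. The value 4 occurred 5109 times and 3 only 2325 times, which a tally of reads would not give, and no counting interval was computed. CPM are counts relative to the TMM-scaled library size.

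Of 52550 identifiers 52403 were matched to a symbol. Counts were filtered with filterByExpr, scaled by TMM and tested in R 4.3.3 with edgeR 4.0.16 (quasi-likelihood test, Benjamini-Hochberg adjustment over all genes tested, limma 3.58.1), with DESeq2 1.42.0 as an alternative. Standard errors were derived from F. The fit was tested on simulated data. The genes, lists and tests were chosen with earlier results of these data known. One listed name, Ctgf, was not matched and is not analysed here. Named genes were the 10, and of each list those at an unadjusted p under 0.05 and the 3 (in marker lists 2) of highest mean CPM, besides the 5 genes of most similar profile. Those with groups that do not overlap, and Slco1a4, Abcb1a, Lrp8, Slc16a1, Lcn2, Plaur, Gkn3 and Sema3g, were added after their values were seen. Some genes that this rule names are not reported here.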

Additional observations from a re-analysis of the deposited data

How the results depend on the processing

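The count of the 10 genes passing all thresholds was 0 under 16 alternatives: 2 settings of DESeq2, library totals or upper quartiles in place of TMM, 2 other count filters, a stricter adjusted p, no fold change threshold, the replicate block, each library left out in turn, and Sham2 and TBI1 left out together, which was added after their marker levels were seen. The count at an unadjusted p under 0.05 was 0 except without 1 library (0 to 1: Vwf without Sham2, Cldn5 without TBI1) and without Sham2 and TBI1 together (1, Vwf). Over the edgeR settings, the lowest adjusted p of the 10 genes was 0.801. The log2 fold changes of Kdr (-0.61 to -0.29), Vwf (0.47 to 1.01), Slc2a1 (0.056 to 0.50) and Mfsd2a (0.061 to 0.32) kept their direction in all 14 alternatives that give one. Of the 140 values recomputed for the 10 genes, 15 changed sign, all among the other 6 genes and each with a library left out, and the cause was not tested. Over the settings that leave out 1 library, the range was -0.42 to 0.052 for Cldn5, -0.47 to 0.25 for Ocln, -0.030 to 0.12 for Tjp1 (-0.089 without Sham2 and TBI1), -0.17 to 0.34 for Pecam1, -0.53 to 0.13 for Cdh5 (0.20 without Sham2 and TBI1) and -0.099 to 0.14 for Flt1. Without Sham1, Pecam1 was -0.17 and Flt1 -0.099. Without Sham2, Tjp1 was -0.030 and Cdh5 0.13. Without Sham3, Ocln was 0.25 and Pecam1 -0.075. Without TBI1, Ocln was 0.033, Tjp1 -0.024 and Pecam1 -0.0051. Without TBI2, Tjp1 was -0.0026 and Pecam1 -0.042. Without TBI3, Cldn5 was 0.052 and Flt1 -0.0050. The deviations of same-numbered libraries had r across 18795 genes of -0.0996, -0.065 and 0.1528. Those of differently numbered libraries had r from -0.1822 to 0.2104. With so few libraries in each group, these values cannot decide whether the numbers pair the libraries. With the replicate block, 0 of the 10 genes and 723 of all genes, against 806 without it, were at an unadjusted p under 0.05. The mean over the 10 genes, 0.042 between groups, ranged from -0.090 to 0.11.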

Other observations

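Of 14 genes that mark arterial, capillary or venous endothelium, 10 had a log2 fold change above 0 and 4 below, with a median of 0.11 (0.028 without TBI2), and by edgeR 0 were at an unadjusted p under 0.05. The arterial genes Efnb2 (30.4, 52.8 and 38.0 CPM in sham, 82.8, 32.4 and 21.0 CPM in TBI) and Hey1 (52.5, 50.1 and 49.9 CPM in sham, 70.4, 47.2 and 44.6 CPM in TBI) were highest in TBI1, and of the 14 genes 4 were highest and 5 lowest in that library. Those lowest there included Gkn3 and Sema3g, which are also arterial genes.

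Of the other cell types a hippocampal library can hold, the fibroblast list had 1 gene above 0 and 9 below (Igf2 at 7.35 to 152 CPM in sham and 31.9 to 84.5 CPM in TBI), and 9 of 10 were above 0 without TBI1. The choroid plexus list had 2 above and 8 below (Ttr at 26.3 to 1930 and 201 to 2199 CPM), with 5 and 5 without TBI1 and 0 and 10 without Sham2, and its median of -0.42 was -2.14 without TBI2. The 5 red blood cell genes summed to 126 to 416 CPM in sham and 117 to 601 CPM in TBI, and the 8 microglial genes to 378 to 475 and 374 to 729 CPM. The red blood cell list had 5 above 0 and 0 below, with a median of 0.38 (-0.72 without TBI2). The microglial list had 7 above and 1 below, with a median of 0.31 (0.013 without TBI1). The 8 astrocyte genes summed to 5226 to 7378 and 4815 to 6165 CPM, and the 8 neuronal genes to 6512 to 7454 and 5698 to 6647 CPM.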
